A study of Mus musculus with 14 samples.

Results

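The spliceosome removes introns from pre-mRNA with 5 small nuclear ribonucleoproteins (snRNPs), and the transcripts of their protein subunits were followed here in mouse oocytes with and without Mff, a receptor on the mitochondrial outer membrane that recruits the fission enzyme DRP1. Members were all genes in either deposited table whose symbol begins with Snrp, Snrnp, Lsm, Sf3a or Sf3b, leaving out Lsm14a, Lsm14b and pseudogene symbols. This gave 40 of the 18507 genes in either table, and all 40 were among the 16196 genes listed in both tables. Lsm12 and Lsmem1 match the rule by name. LSM12 carries an LSm domain without being a subunit of an LSm ring, and Lsmem1 encodes a membrane protein with a leucine-rich stretch, so both are given apart.

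Except for that of U6 snRNA, each of these snRNPs is built on a ring of 7 Sm proteins. The ring holds SmB or SmN, SmD1, SmD2, SmD3, SmE, SmF and SmG and closes around a uridine-rich site of the snRNA. The related LSm proteins form the LSm2-8 ring at the end of U6 snRNA in the nucleus and the LSm1-7 ring, an activator of mRNA decapping in the cytoplasm. SF3A and SF3B belong to the U2 snRNP and hold it at the branch point. A fully grown oocyte in the germinal vesicle (GV) stage stores mRNA, falls silent in transcription and, while it matures to the ovulated egg, degrades some stored mRNAs and lengthens the poly(A) tails of others.

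Oocytes of the WT groups came from Mff fl/fl mice, whose Mff allele is flanked by loxP sites, and oocytes of the CKO groups from Mff fl/fl; Gdf9-Cre mice, so every group carried the floxed allele. The Gdf9 promoter drives Cre in oocytes from early follicles on, and is not active in the surrounding somatic cells. At the GV stage 4 WT and 4 CKO libraries were sequenced, and at the ovulated stage 3 of each genotype, made with SMART-SeqII and PCR preamplification per the labels' protocols. The labels used here name neither age nor strain, nor how many oocytes or animals went into a library. The p-values therefore set group differences against the scatter among these libraries, and that scatter may be technical.

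Mff itself was measured at 750 ± 226 CPM in GV WT and 39.6 ± 7.34 CPM in GV CKO oocytes (SD, n = 4 each), and at 433 ± 220 and 43.0 ± 11.6 CPM in ovulated WT and CKO oocytes (SD, n = 3 each), with no overlap between the genotypes at either stage. Levels written as CPM are counts scaled to library size by TMM over all 14 libraries and are shares of a library. A lower level of a transcript in each oocyte and its presence in fewer of the oocytes of a library therefore cannot be told apart. Library totals lay between 26575593 and 28847424 counts. Marker levels are given as CPM of the library total, without TMM scaling. The summed level of 12 oocyte markers was 19677 to 33269 CPM, and none of them was at 0 in any library. Of 18 markers of granulosa and cumulus cells, those in the tables summed to 45.4 to 101 CPM in GV and 87.3 to 117 CPM in ovulated libraries. Among them Cyp19a1 had 32.4 to 91.6 CPM, Inha 0.367 to 4.96 CPM in GV WT and 1.05 to 11.5 CPM in GV CKO, and Fshr at most 1.29 CPM. Of 13 markers of blood, immune and stromal cells, those in the tables (13 in GV, 8 in ovulated) summed to 23.3 to 44.8 CPM in GV and 54.9 to 139 CPM in ovulated libraries, with no overlap. The part of these other cell types in the changes with stage was not tested. The 100 most abundant genes took 38.1% of the counts in GV WT library 2, 35.2% in GV CKO library 1 and 42.4% in GV CKO library 2, against 48.2% to 51.1% in the other 5 GV libraries.

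Transcript levels of different members were compared as FPKM, which corrects for length. In GV WT oocytes the most abundant was Snrpe (SmE), at 654, 700, 674 and 641 FPKM in the 4 libraries. Lsm3, a subunit of both LSm rings, followed with 446, 748, 518 and 435 FPKM, and Snrpg (SmG) had 324, 465, 369 and 308 FPKM. Library 2 was the highest of the 4 for each of these genes, and Lsm3 and Snrpg overlapped in range. This order depends on length, and the deposited counts and FPKM imply 262, 400 and 167 bases for Snrpe, Lsm3 and Snrpg. By mean CPM in GV WT, Sf3b1 led with 358, and Snrpe had 203, Lsm3 245 and Snrpg 67.8 CPM. At the other end of the FPKM order stood Sf3a2, a subunit of SF3A, at a mean of 0.21 FPKM and Snrnp35, a protein of the minor spliceosome, at 0.0675 FPKM in GV WT. Both fell below the filter on low counts within each stage, so 38 of the 40 members were tested between genotypes, and 39, all but Snrnp35, across stages.

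The change from GV to ovulated oocytes in WT was asked first, because it sets the level against which the CKO is read. The stages come from separate tables, so stage and table cannot be told apart. Of 39 members tested, 13 rose and 14 fell (edgeR's quasi-likelihood test, Benjamini-Hochberg adjusted p under 0.05 over all genes). Here and below, a rise or fall with stage is one in the share of a library. Transcript numbers per oocyte were not measured, and the part of poly(A) tail length in these shares was not tested. Over all 13199 genes tested, 30.3% rose and 36.2% fell, and the members' shares, 33.3% and 35.9%, lay near these. Libraries of the stages did not overlap for 15 members that were higher and 13 that were lower when ovulated, beside 31.4% and 37.3% of all genes. The members' median log2 fold change was 0.20, beside -0.17 over all genes. The individual members spread from -5.36 to 1.92, and subunits of the same particle moved in opposite directions.

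**Figure D1:**
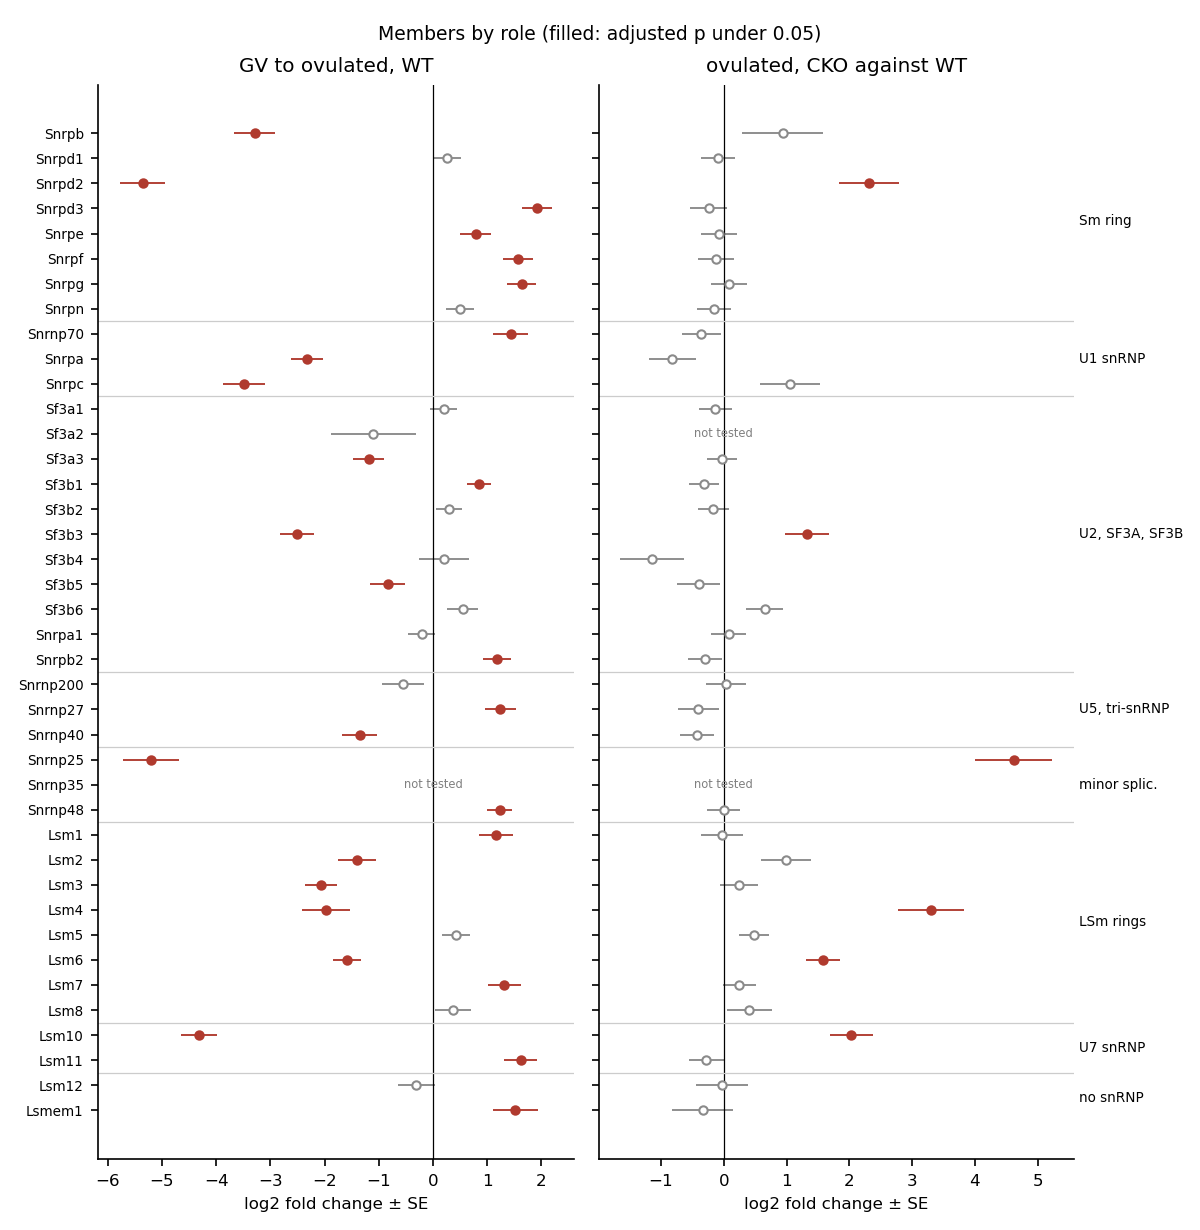
Log2 fold change with its standard error for the members, grouped by role, from GV to ovulated oocytes in WT (left, 39 members tested, 4 against 3 libraries) and between CKO and WT ovulated oocytes (right, 38 members tested, 3 against 3 libraries). Filled points passed adjusted p under 0.05: 27 members on the left, 13 higher and 14 lower, and 6 on the right, all higher in CKO and all among the 14 that fell in WT.

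In the Sm ring, Snrpd3, Snrpe, Snrpf and Snrpg rose and Snrpd2 and Snrpb fell, while Snrpd1 (log2 fold change 0.26) and Snrpn (0.50) were not called. Snrpd2 (SmD2, chr7:19149445-19152734 of GRCm38.p6) had 88.3, 86.3, 86.3 and 82.0 CPM in the GV WT libraries and 1.99, 3.36 and 0.890 CPM in the ovulated WT libraries. Every ovulated library was far below every GV library, and the change of -5.36 on the log2 scale (SE 0.42, adjusted p = 2.08e-08, edgeR's quasi-likelihood test) was the largest fall of any member. Snrpd3 (SmD3, chr10:75518042-75535440), whose protein pairs with SmB in the ring, had 17.9, 22.4, 20.4 and 16.5 CPM in GV WT and 61.2, 105 and 53.0 CPM in ovulated WT. Its groups did not overlap either, and its rise of 1.92 on the log2 scale (SE 0.28, adjusted p = 1.2e-05, edgeR) was the largest rise.

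Snrpb (SmB) was a rare transcript at 5.77, 7.21, 6.14 and 8.97 CPM in GV WT and 0.373, 1.06 and 0.712 CPM in ovulated WT, the last from 12, 33 and 20 counts. Its log2 fold change was -3.29 (SE 0.38, adjusted p = 9.62e-07, edgeR). Snrpe had 242, 148, 205 and 219 CPM in GV WT and 245, 318 and 487 CPM in ovulated WT. The groups were separate by a narrow margin and differed by 0.78 on the log2 scale (SE 0.28, adjusted p = 0.0198, edgeR). The Snrpe call ended without GV WT library 2 (0.66, adjusted p = 0.0552) or without ovulated WT library 3 (0.47, adjusted p = 0.160), and in 4 of 26 alternative fits in all. Snrpg rose from 76.1, 61.0, 69.8 and 64.1 CPM to 154, 177 and 299 CPM, and Snrpf (SmF) rose by 1.56 on the log2 scale.

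Of the U1 proteins, which recognise the 5′ splice site, Snrpc (the C protein of U1) fell by 3.49 and Snrpa (the A protein of U1) fell by 2.33 on the log2 scale, while Snrnp70 (U1-70K) rose by 1.43. Snrpc went from 24.6 to 32.3 CPM in GV WT to 1.74 to 3.35 CPM in ovulated WT, and Snrnp70 from 6.70 to 16.9 CPM to 28.7 to 40.1 CPM. Neither pair of groups overlapped. Of 11 tested proteins of the U2 snRNP with SF3A and SF3B, Sf3b1 (log2 fold change 0.85), which contacts the branch site, and Snrpb2 (1.18), the U2B″ protein bound to U2 snRNA, rose. Sf3b3 (-2.51), a scaffold subunit of SF3B, Sf3a3 (-1.19) and Sf3b5 (-0.84) fell, Sf3b5 with overlapping libraries. The Sf3b5 call ended without GV WT library 1 (-0.76, adjusted p = 0.0617), ovulated WT library 1 (-0.60, adjusted p = 0.138) or ovulated WT library 2 (-0.70, adjusted p = 0.103). The other 6 of these were not called, with log2 fold changes between -1.10 and 0.55.

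Of the proteins of U5 and the tri-snRNP, Snrnp27 rose by 1.24 and Snrnp40 fell by 1.35 on the log2 scale, and Snrnp200, the helicase BRR2 that unwinds U4 from U6, was not called (-0.55). In the minor spliceosome, which removes the rare U12-type introns, both tested proteins belong to the U11 snRNP. Snrnp25 (chr11:32205415-32208996) fell by 5.20 and Snrnp48 rose by 1.23 on the log2 scale. Snrnp48 had 12.0 to 17.9 CPM in GV WT and 33.5 to 37.1 CPM in ovulated WT, so the groups did not overlap.

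The U7 snRNP processes the 3′ ends of replication-dependent histone mRNAs, and its ring holds LSM10 and LSM11 in place of SmD1 and SmD2. These transcripts moved apart. Lsm10 (chr4:126096562-126098584) fell from 228, 278, 225 and 219 CPM in GV WT to 10.8, 9.36 and 15.7 CPM in ovulated WT, which is -4.31 on the log2 scale (SE 0.33, adjusted p = 1.87e-08, edgeR). Lsm11 rose from 9.56, 14.1, 10.8 and 9.48 CPM to 34.9, 41.6 and 24.5 CPM, by 1.62 (SE 0.30, adjusted p = 0.000141, edgeR). Of the 8 LSm ring genes, Lsm1 (1.16) and Lsm7 (1.32) rose, Lsm3 (-2.07), Lsm4 (-1.98), Lsm6 (-1.59) and Lsm2 (-1.40) fell, and Lsm5 (0.42) and Lsm8 (0.37) were not called. Lsm3 had 254, 245, 246 and 233 CPM in GV WT and 39.4, 52.0 and 83.7 CPM in ovulated WT, with no overlap. Of the name matches that belong to no snRNP, Lsmem1 rose by 1.52 on the log2 scale, from 0.866 to 1.34 CPM in GV WT to 1.77 to 4.59 CPM in ovulated WT, and Lsm12 was not called.

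Because the rings hold each subunit once, the shares of their subunits in the summed FPKM of a ring were followed. Subunits common to the LSm2-8 and LSm1-7 rings were counted in full in each, as were Sm proteins that the U7 ring shares. The shares are therefore not of transcripts that serve 1 ring alone. SmD2 was 14.7% ± 1.86 of the Sm ring transcripts in GV WT (SD, n = 4) and 0.240% ± 0.160 in ovulated WT (SD, n = 3). SmE kept close to its share, 38.2% ± 3.50 and 37.4% ± 1.53. The lowest subunit in GV WT was SmB and SmN together, and SmE exceeded it by 35.2 to 60.1 times. Snrpn, whose values are uncertain as described further on, gave 8.14 of the mean 14.9 FPKM of SmB and SmN in GV WT. In ovulated WT it gave 14.8 of 15.7 FPKM, so this sum does not show the fall of Snrpb. In ovulated WT the lowest was SmD2, and SmE exceeded it by 99.2 to 614 times. In the LSm2-8 ring, LSM3 was 53.9% ± 2.71 of the transcripts in GV WT and 16.3% ± 3.75 in ovulated WT, while LSM7 was 14.0% ± 3.09 and 43.5% ± 3.25. These shares describe transcripts, not protein, and the FPKM of the shortest transcripts depend on the length the authors assigned them.

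**Figure D2:**
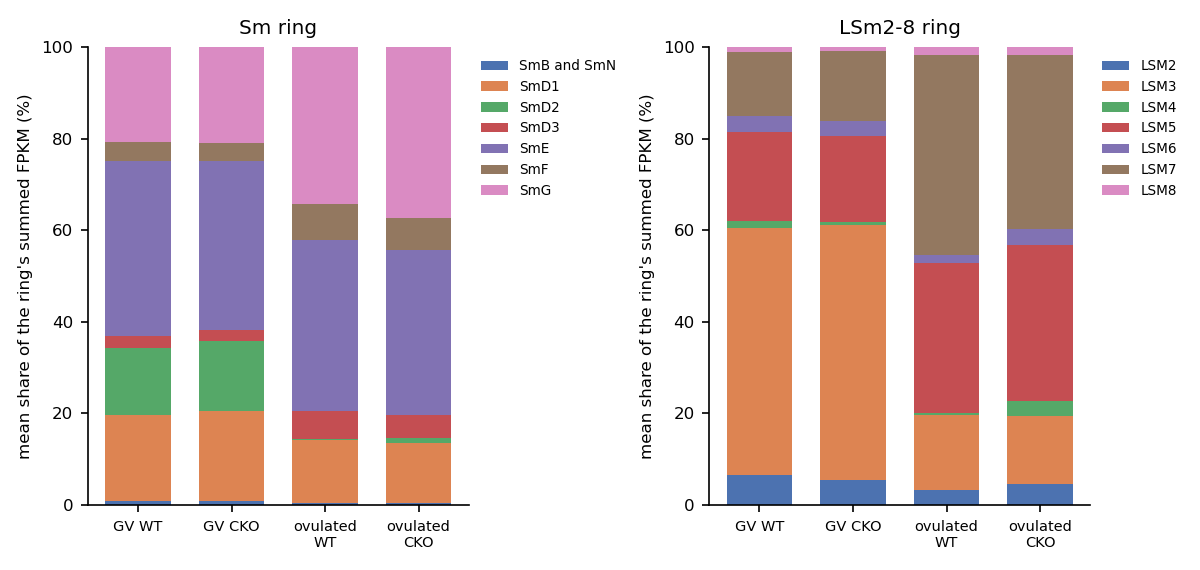
Mean share of each subunit in the summed FPKM of the Sm ring (left) and the LSm2-8 ring (right), in GV (4 libraries of each genotype) and ovulated oocytes (3 of each). SmD2 is 14.7% in GV WT and too thin to see in ovulated WT, at 0.240%, and LSM3 and LSM7 exchange rank between the stages in both genotypes.

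Cytoplasmic polyadenylation elements (CPEs) in the 3′ untranslated region are the sites at which CPEB directs poly(A) tail lengthening in maturing oocytes. The last 100 bases of the annotated 3′ untranslated region, or all of it where shorter, were searched on the transcript strand for TTTTAT and TTTTAAT, and the last 40 bases for the poly(A) signals AATAAA and ATTAAA. GENCODE M21 transcripts (GRCm38) were used, and 31 of the 40 members had a transcript whose length was within 25% of the length implied by the deposited counts and FPKM plus 248 bases, the median by which annotated length exceeded implied length in 4883 genes with 1 coding transcript. A CPE match stood in 5 of 10 such members that rose (50%), in 2 of 11 that fell (18.2%) and in 2 of 10 not called (20%). Over all genes with a matching transcript the shares were 32.2%, 10.4% and 19.2%. Among members as among all genes, the share was highest in those that rose. Members that fell and members not called had 2 matches each, and with so few members the shares are a description only. The following windows of 30 bases hold a match, in capitals, of 4 members that rose. They lie in the 3′ untranslated region, on the minus strand, at chr11:45928306-45928335 (Lsm11), chr1:54985223-54985252 (Sf3b1), chr6:86675202-86675231 (Snrnp27) and chr7:45376491-45376520 (Snrnp70).
Lsm11: gcaatgttctgcTTTTAATatgtgtcaaat
Sf3b1: tttatattgtatTTTTAATatttgttgtat
Snrnp27: tgtttctacccaTTTTATatttatttgaca
Snrnp70: gtagatttttttTTTTAATccggtcccttg
The match ends 48, 65, 63 and 49 bases before the annotated transcript end in that order. Lsm7, the fifth, has its TTTTAAT overlapping the poly(A) signal. The members higher in ovulated CKO oocytes, described further on, had no CPE match in the 4 of 6 that had a matching transcript, beside 7.78% with a match among all such genes higher in ovulated CKO (52 of 668), so 0 of 4 says little. The windows with the poly(A) signal, in capitals, of 3 of them are shown because the genotype results turn on these genes, at chr11:32208946-32208975 (Snrnp25, plus strand), chr8:70678716-70678745 (Lsm4, plus strand) and chr8:110810248-110810277 (Sf3b3, minus strand).
Snrnp25: cctggcttatagAATAAAtgtgtttgcttt
Lsm4: ttctgtttgaaaAATAAAagcaaacaccat
Sf3b3: ctattcatggatATTAAAgagggtgttttc
The signal ends 21, 19 and 21 bases before the annotated end in that order, and the GENCODE transcript of Sf3b3 runs past the end of the RefSeq gene. Snrpd2, Snrpg and Sf3b5 were among the 9 members without a matching transcript, so no 3′ end is given for them.

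In GV oocytes the loss of Mff was compared before maturation. None of the 38 members tested was called by edgeR's quasi-likelihood test. Over all 12298 genes tested, 0.00813% were higher and 0.00813% lower, which is 1 gene each way, so the comparison made almost no calls for any gene. DESeq2 called 0 members and 56 genes in all. The members' median log2 fold change was 0.15, beside 0.03 over all genes, and 3 members had an unadjusted p under 0.05.

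Those 3 were Lsm4, Lsm1 and Snrpb. Lsm4 had 10.6, 8.02, 10.2 and 11.3 CPM in GV WT and 4.52, 4.77, 7.38 and 6.75 CPM in GV CKO libraries, all 4 CKO libraries below all WT libraries (log2 fold change -0.79, SE 0.25, adjusted p = 0.555). Lsm1, which sets the cytoplasmic LSm ring apart from the nuclear one, had 30.9, 54.2, 32.6 and 47.2 CPM in WT and 55.2, 76.6, 59.9 and 65.8 CPM in CKO (log2 fold change 0.63, SE 0.22, adjusted p = 0.630). Snrpb had 9.34, 9.71, 11.2 and 12.8 CPM in CKO, all above WT (0.60, SE 0.23, adjusted p = 0.686). None passed the adjustment. Groups did not overlap in 2 members higher and 1 lower, beside 2.39% and 1.81% of all genes. GV CKO library 2 had the highest median level of the members, 5.96 on the log2 CPM scale against 5.43 to 5.62 in the other GV libraries, and was among the libraries with a low share of counts in the top genes. Its part in these values was not tested.

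In ovulated oocytes 6 of 38 members were higher in CKO than in WT and 0 were lower by edgeR's quasi-likelihood test, and DESeq2 gave the same counts. A limma fit on unfiltered log2(FPKM + 1) called 0 members and 13 genes in all. The 6 are 15.8% of the members, beside 6.44% of all 12010 genes tested that were higher and 1.4% that were lower. Unadjusted p was under 0.05 for 11 members. The median log2 fold change of the members was -0.02 and that of all genes -0.00. The 6 came from 5 roles: Snrpd2 of the Sm ring, Sf3b3 of SF3B, Snrnp25 of the minor spliceosome, Lsm4 and Lsm6 of the LSm rings and Lsm10 of U7. Groups did not overlap in 9 members higher in CKO and 2 lower, beside 15% and 14.1% of all genes.

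Snrnp25, the U11 protein, showed the largest difference. It had 0.683, 0.452 and 0.107 CPM in ovulated WT, from 22, 14 and 3 counts, and 4.44, 14.6 and 11.3 CPM in ovulated CKO, from 155, 574 and 375 counts. The log2 fold change was 4.62 (SE 0.62, adjusted p = 0.000572, edgeR). In GV oocytes it had 13.4, 15.7, 18.3 and 15.1 CPM in WT and 20.7, 25.4, 17.0 and 14.6 CPM in CKO. Ovulated CKO libraries 2 and 3 were thus near the GV levels, and CKO library 1 lay between.

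Lsm4 (chr8:70673231-70678752) encodes a subunit of both LSm rings. It had 3.73, 2.48 and 1.39 CPM in ovulated WT and 7.79, 32.7 and 32.7 CPM in ovulated CKO (log2 fold change 3.30, SE 0.52, adjusted p = 0.00178, edgeR). CKO libraries 2 and 3 exceeded every GV library of either genotype, where the highest value was 11.3 CPM, and CKO library 1 stood apart below them. LSM4 was 0.528% ± 0.338 of the LSm2-8 ring transcripts in ovulated WT and 3.37% ± 1.64 in ovulated CKO (SD, n = 3 each).

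**Figure D3:**
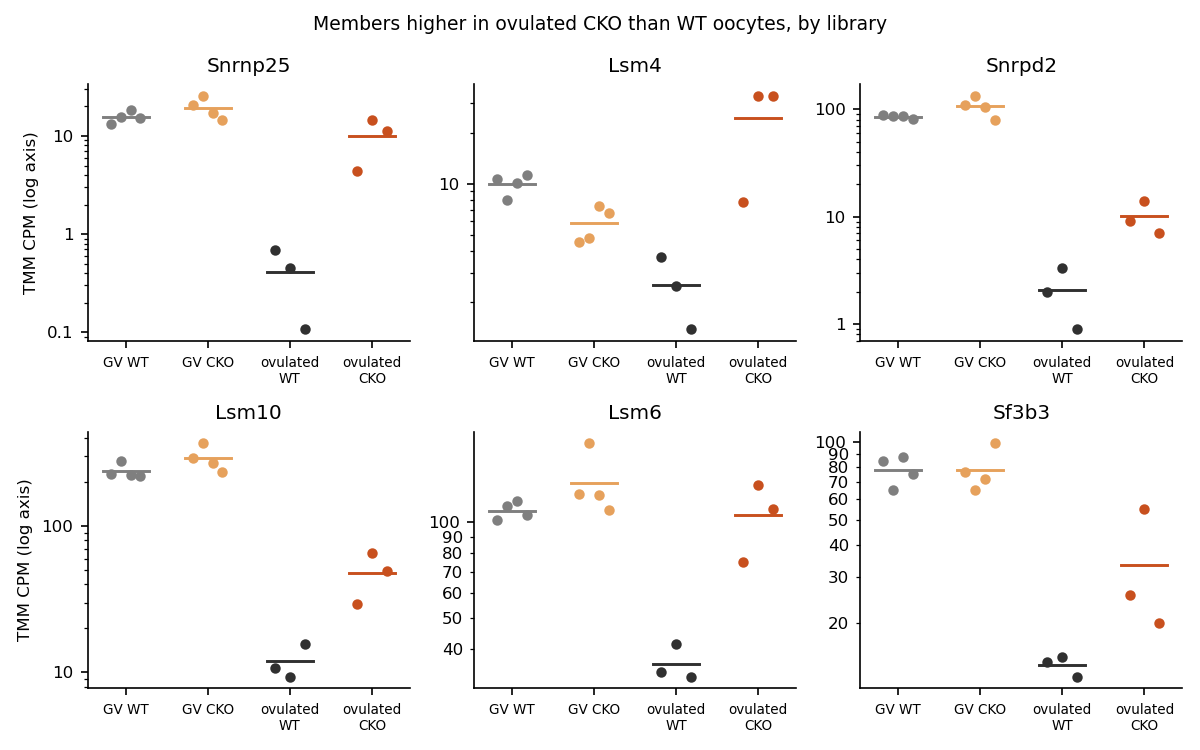
TMM CPM on log axes of the 6 members called higher in ovulated CKO than ovulated WT oocytes; each point is a library and each line a group mean, with 4 GV and 3 ovulated libraries per genotype. In all 6 the ovulated groups do not overlap, and Lsm4 is the only one of them whose ovulated CKO mean, 24.4 CPM, lies above its GV means.

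Snrpd2 had 1.99, 3.36 and 0.890 CPM in ovulated WT and 9.05, 14.1 and 7.00 CPM in ovulated CKO (log2 fold change 2.32, SE 0.48, adjusted p = 0.00787, edgeR). All CKO libraries lay above all WT libraries and far below the 79.5 to 133 CPM of GV CKO. SmD2 accordingly had 1.08% ± 0.424 of the Sm ring transcripts in ovulated CKO, between the 0.240% of ovulated WT and the 15.2% of GV CKO. Lsm10 had 10.8, 9.36 and 15.7 CPM in ovulated WT and 29.2, 65.5 and 49.2 CPM in ovulated CKO (2.03, SE 0.34, adjusted p = 0.0023, edgeR), whereas Lsm11, its partner in the U7 ring, was not called (-0.28).

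Lsm6 (chr8:78804868-78821152), a subunit of both LSm rings, had 33.9, 41.6 and 32.9 CPM in ovulated WT and 74.8, 131 and 110 CPM in ovulated CKO (1.58, SE 0.27, adjusted p = 0.00249, edgeR). The CKO values reached the 101 to 116 CPM of GV WT in libraries 2 and 3. GV CKO had 109 to 176 CPM, and its mean of 132 CPM lay above the ovulated CKO mean of 105 CPM. Sf3b3 (chr8:110810491-110846806) had 14.1, 14.7 and 12.4 CPM in ovulated WT and 25.6, 55 and 20.1 CPM in ovulated CKO (1.33, SE 0.36, adjusted p = 0.0329, edgeR). Its groups were separate, but CKO library 2 carried much of the difference: without that library the log2 fold change was 0.78 with adjusted p = 0.218. Its call also ended without any 1 of the 3 WT libraries, with adjusted p = 0.0817, 0.0799 and 0.112 for WT libraries 1, 2 and 3.

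Among members not called, Snrpc (log2 fold change 1.06, adjusted p = 0.199) and Lsm2 (0.99, adjusted p = 0.140) had the next highest values, and Sf3b4 (-1.14, adjusted p = 0.188) and Snrpa (-0.82, adjusted p = 0.201) the lowest. The 4 Sm genes that rose in WT during maturation, Snrpd3, Snrpe, Snrpf and Snrpg, had log2 fold changes between genotypes of -0.24 to 0.08 and overlapping groups. Without both ovulated WT library 3 and CKO library 2, in which the 100 most abundant genes took 35.4% and 25.0% of the counts against 29.5% to 30.5% in the other ovulated libraries, 3 members were called. Snrnp25, Lsm10 and Lsm6 were those 3, while Lsm4 had 2.75 with adjusted p = 0.0814 and Snrpd2 had 1.64 with adjusted p = 0.0862.

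All 6 members higher in ovulated CKO were among the 14 that fell in WT from GV to ovulated. None of the 13 that rose and none of the 11 others tested was among them. Over all genes tested in both comparisons, 17.4% of those that fell in WT were higher in ovulated CKO (699 of 4017), against 0.276% of those that rose. Both comparisons use the same ovulated WT libraries, so this grouping is a description and has no test. Zp3, a zona pellucida gene from the oocyte marker list that is no member, had 3301 to 3806 CPM of the library total in GV WT, 177 to 271 CPM in ovulated WT and 538 to 897 CPM in ovulated CKO, so it was also higher in every ovulated CKO library than in every ovulated WT library. Gdf9, from the same list, had 7342 to 10544 CPM in GV WT. In ovulated WT it had 7067 to 10698 CPM and in ovulated CKO 4258 to 8858 CPM, with overlap. The sum of the 12 oocyte markers also overlapped, at 19677 to 24930 CPM in ovulated WT and 22002 to 23972 CPM in ovulated CKO. The list's other genes are not given singly. The part of whatever sets Zp3 in the members' values was not tested.

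From GV to ovulated oocytes in CKO, 9 of 39 members rose and 10 fell (edgeR's quasi-likelihood test), beside 23.2% and 31.2% of all genes. DESeq2 gave 14 and 10. The largest falls were Snrpd2 (log2 fold change -3.41), Snrpa (-3.14), Snrpb (-3.0) and Lsm10 (-2.60), and the largest rises Lsm4 (2.06), Snrnp70 (1.61) and Lsm11 (1.5). In WT the same genes had -5.36, -2.33, -3.29, -4.31, -1.98, 1.43 and 1.62 in that order. Lsm4 was the only member called in opposite directions in the genotypes.

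Whether the change with stage differed between genotypes was tested as an interaction in the fit of all 4 groups. It was called for 5 of 39 members, all with a more positive change in CKO, beside 3.17% of all genes with a more positive and 0.0833% with a more negative change. Snrnp25 differed by 4.26 (SE 0.62, adjusted p = 0.00158), Lsm4 by 4.04 (SE 0.61, adjusted p = 0.00209), Snrpd2 by 1.95 (SE 0.47, adjusted p = 0.0318), Lsm10 by 1.71 (SE 0.39, adjusted p = 0.0229) and Lsm6 by 1.26 (SE 0.34, adjusted p = 0.0493) on the log2 scale, all by edgeR's quasi-likelihood test. Sf3b3 had 1.29 with adjusted p = 0.106. Snrnp25 and Lsm4 were called in every alternative fit that was run.

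The calls of the other 3 were less stable. The count was 3 without GV WT library 1, 3 or 4, without GV CKO library 3 or 4 or without ovulated WT library 2, and it was 2 without ovulated WT library 1 or without ovulated CKO library 2. Lsm6 was not called in 17 of its 26 alternative fits, Snrpd2 in 13 and Lsm10 in 6. In the 2 fits that called 2 members, Snrpd2 had 1.91 with adjusted p = 0.0762 and 1.62 with adjusted p = 0.127, and Lsm10 had 1.65 with adjusted p = 0.063 and 1.42 with adjusted p = 0.0896.

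**Figure D4:**
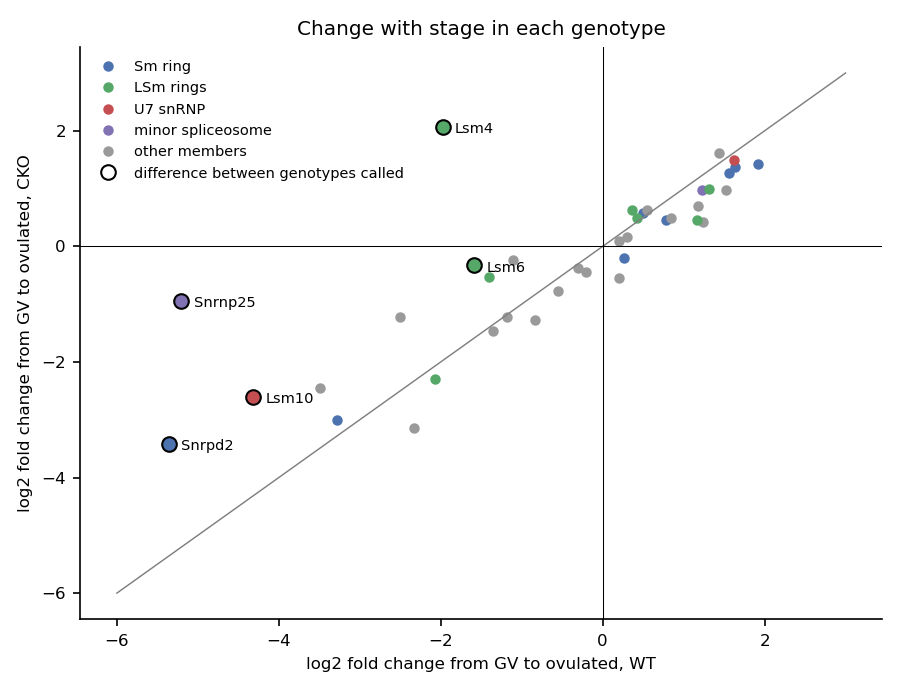
Log2 fold change from GV to ovulated oocytes in WT (horizontal) and CKO (vertical) for the 39 members tested, coloured by role; the grey line marks equal change, and points with a black edge were called in the interaction test. All 5 called members lie above the line, and Lsm4 alone lies above 0 in CKO and below 0 in WT among them.

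Transcript length moved with the change between stages over all genes, and most Sm and LSm transcripts are short. The length implied by the deposited counts and FPKM, an effective length that ran a median of 248 bases below the annotated transcript, ranged from 167 bases for Snrpg to 6534 bases for Snrnp200. Across all genes, Spearman's rho between this length and the log2 fold change from GV to ovulated was 0.43 in WT (n = 11962) and 0.42 in CKO. Across the 39 members it was -0.02 and -0.06. Between ovulated CKO and WT it was -0.21 over all genes and -0.31 over 38 members, and in GV 0.01 and -0.42. Genes are not independent replicates, and these values describe the libraries.

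**Figure D5:**
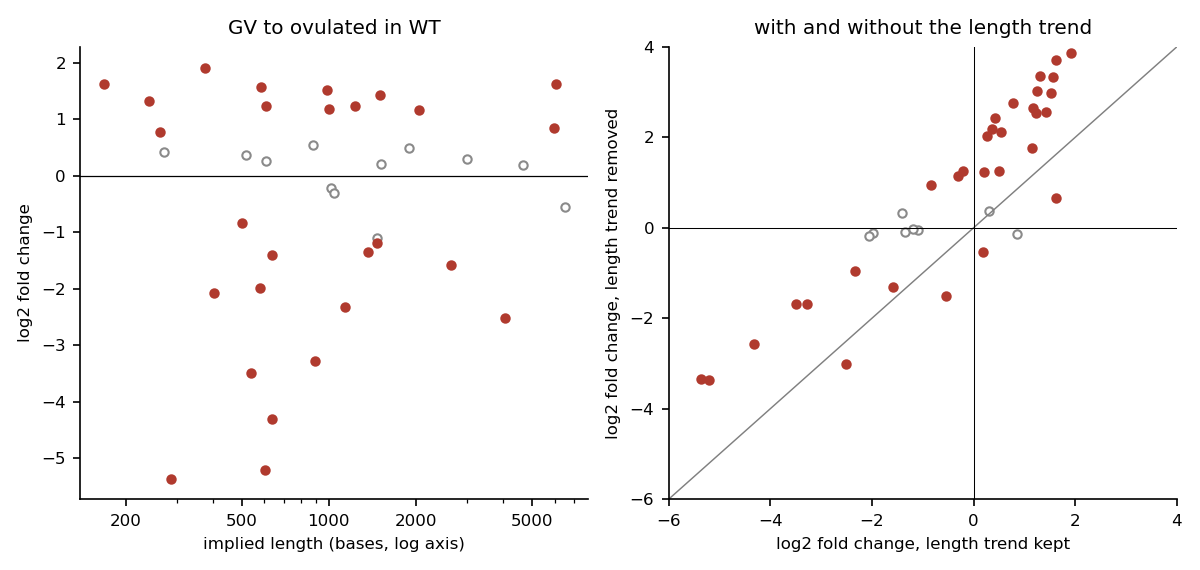
Left, implied transcript length (log axis) against the log2 fold change from GV to ovulated oocytes in WT for 39 members; right, the same fold change with and without removal of the length trend, with a grey line of equality. Filled points passed adjusted p under 0.05, on the right with the trend removed; members of similar short length lie both above and below 0, and the median goes from 0.20 to 0.96 when the trend is removed.

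With each library's trend on length removed, 21 members rose and 10 fell from GV to ovulated in WT, in place of 13 and 14, and the members' median went from 0.20 to 0.96. Snrpd2, Snrnp25, Lsm10, Snrpc, Snrpb, Snrpa, Lsm6 and Sf3b3 still fell, and Snrpd3, Snrpe, Snrpf and Snrpg still rose. Snrnp200 (-1.52) and Sf3a1 (-0.54), not called with the trend kept, now fell. Lsm5 (2.43), Lsm8 (2.20), Sf3b6 (2.11), Snrpd1 (2.03), Snrpn (1.26), Snrpa1 (1.25), Sf3b4 (1.23) and Lsm12 (1.14), also not called before, now rose. Lsm3 (-0.19), Lsm4 (-0.12), Snrnp40 (-0.10) and Sf3a3 (-0.03) were no longer called. Lsm2 turned to 0.33 and Sf3b1 to -0.13, both no longer called, and Sf3b5 turned to a rise of 0.96. In CKO 21 rose and 8 fell, in place of 9 and 10.

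Between the ovulated groups the same fit called 5 members higher and 6 lower in CKO, in place of 6 and 0. Snrnp25, Lsm4, Lsm10, Lsm6 and Sf3b3 stayed higher, and Snrpd2 had 1.04 with adjusted p = 0.189. The 6 lower were Snrpg (-1.43), Snrpe (-1.30), Sf3b5 (-1.21), Snrnp27 (-1.20), Lsm7 (-1.05) and Snrpf (-0.91), with adjusted p of 0.0144 to 0.0356. In the interaction 3 were then more positive and 2, Snrpg (-1.58) and Snrnp27 (-1.5), more negative. Which of the fits is nearer to the oocytes' RNA was not tested.

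Some members share sequence with other genes, and SMART-SeqII libraries do not keep the strand. Snrpf and Snrpn had non-whole counts in all 14 libraries, and Lsm6 in 71.4%, which counting of whole reads does not give. Annotated exons of Ccdc38 on the opposite strand cover 65.9% of the exon bases of Snrpf, and exons of Snurf and Gm38393 on the same strand cover 10.0% and 27.3% of those of Snrpn. Plekhj1 covers 16.1% of Sf3a2, BC024978 covers 11.0% of Snrpa, Gucd1 covers 6.74% of Snrpd3 and Cog4 covers 1.72% of Sf3b3, all on the opposite strand. The values of Snrpf and Snrpn are therefore uncertain, and the call of Lsm6 rests on estimated counts.

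The same comparisons were made in 121 other listed genes of splicing, snRNP assembly and LSm partners. In GV oocytes 0 of 116 tested were called. In ovulated oocytes 4 of 117 were higher in CKO and 1 was lower, beside 6.44% and 1.4% of all genes, so the higher calls were fewer than the share over all genes gives. The higher were Txnl4a (log2 fold change 1.78, adjusted p = 0.0141), the DIM1 protein of U5, Bud31 (1.29, adjusted p = 0.0332), a protein of the activated spliceosome, Snupn (1.28, adjusted p = 0.0305), the import adaptor of snRNPs, and Phf5a (1.27, adjusted p = 0.026), a subunit of SF3B. Rbm17, a splicing factor that binds SF3B1, was lower (-0.86, adjusted p = 0.0448). These p-values are from edgeR's quasi-likelihood test.

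From GV to ovulated in WT, 42 of 119 of these genes rose and 40 fell, beside 30.3% and 36.2% of all genes, against which the counts of each list can be read. The lists were not tested as sets. Their median log2 fold change was 0.09. Of 14 tested SR and SR-related proteins, 10 rose and 1 fell, led by Srrm2 (2.48), Srsf4 (2.10) and Srrm1 (1.93). Of 11 partners of the LSm1-7 ring in mRNA decay with LSM14, 7 rose and 2 fell, with Lsm14a at 2.60, Patl1 at 2.09 and Patl2 at -2.40. Of 12 U2 partners 7 rose and 3 fell, with Dhx15 at 2.36, Smndc1 at 1.73 and U2surp at 1.51.

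In U5 and the tri-snRNP 9 of 13 partners fell and 1 rose, with Txnl4a at -3.77, Usp39 at -3.75 and Prpf3 at -2.37. Of 12 genes of Sm ring assembly 6 fell and 1 rose, with Gemin7 at -4.96, Ddx20 at -2.85 and Clns1a (pICln, which holds Sm proteins before assembly) at -2.71. Of 9 tested minor spliceosome partners 5 fell and 2 rose, with Zmat5 at -4.81, Txnl4b at -4.28 and Scnm1 at -3.62. Of 12 genes of snRNA maturation and transport 4 fell and 2 rose, with Snupn at -4.53, Ncbp1 at -2.98 and Larp7 at 1.41. Of 27 genes of the Prp19 complex and the catalytic steps 8 rose and 8 fell, with Ppie at -6.05, Xab2 at -6.04 and Bud31 at -5.60. Of 9 partners of U7 in histone pre-mRNA processing 4 rose and 2 fell, with Cpsf3 at -2.04, Casp8ap2 at 1.80 and Cpsf2 at 1.5. In CKO the 119 genes gave 39 rises and 33 falls, and the interaction called 1 of them, Txnl4a (1.60, adjusted p = 0.0457).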

How the data were processed

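Bulk RNA of mouse oocytes was measured in 14 libraries. One table per stage, as deposited by the authors, gives a read count and an FPKM value per gene and library. Of the values, 17.6% (GV) and 18.3% (ovulated) were not whole within 0.001, so the values the authors deposited as read counts were handled as not normalized, estimated counts per gene and rounded. FPKM values are as deposited, scaled by the authors to transcript length and library size. The build was mm10 per the submitters' processing notes, and aligner and counter were not given in the sources used here.

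Genes were filtered with filterByExpr, scaled by TMM and tested with edgeR 4.0.16 (quasi-likelihood, robust) in R 4.3.3, within a stage for genotype and in 1 fit of 4 groups over genes in both tables for stage and interaction. P-values were adjusted by Benjamini-Hochberg over all genes tested, with a threshold of 0.05. Counts and FPKM levels set across stages come from separate tables. A change with stage therefore cannot be told apart from a difference in how the tables were made. Alternatives were DESeq2 1.42.0, limma 3.58.1 (voom with quality weights, and trend fits on log2(FPKM + 1) and log2(FPKM + 0.1)), RLE factors, other filters (none, or a mean of 10 CPM), a replicate block, the length trend removed, and libraries left out. The scripts were tested on simulated data.

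Values in every library are given for members called in ovulated oocytes or in the interaction, the 3 of smallest p in GV, the 3 most abundant in GV WT and the largest fall and rise in WT. Of each other list, up to 3 called genes of smallest p are named. Members and lists were chosen with earlier results of these data known.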

Additional observations from a re-analysis of the deposited data

Results flagged for a closer look

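In GV WT oocytes Lsm10 had 278 CPM in library 2, apart from the 219 to 228 CPM of the other 3 libraries, a gap above the 95% critical value of Dixon's test. Among 24 groups examined, chance gives such a gap in about 1 of 20.

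The difference between CKO and WT was not the same in ovulated and GV oocytes for 5 members by the interaction test of edgeR's quasi-likelihood fit. The log2 difference was 4.26 for Snrnp25, 4.04 for Lsm4, 1.95 for Snrpd2, 1.71 for Lsm10 and 1.26 for Lsm6, each with the larger CKO effect in ovulated oocytes.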

How the results depend on the processing

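The counts of members called were 0 in GV, 6 in ovulated oocytes, 27 for the stage change in WT, 19 in CKO and 5 for the interaction. Leaving out 1 library at a time gave 0 to 0, 5 to 7, 26 to 27, 17 to 25 and 2 to 6 in that order. In the ovulated comparison 11 were called with the length trend removed, 3 without ovulated WT library 3 and CKO library 2, and 0 on unfiltered log2(FPKM + 1). In the CKO stage change 29 were called with the length trend removed. In the interaction 2 were called in each of the 3 FPKM fits and 3 without ovulated WT library 3 and CKO library 2. Lsm2 (0.33), Sf3b5 (0.96) and Sf3b1 (-0.13) turned direction in WT with the length trend removed. The cause of these shifts was not tested. Nothing in the labels says that replicate numbers pair the libraries. Deviations from the group means of same-numbered libraries correlated at -0.284, 0.200, 0.0648 and 0.360 in GV oocytes. In ovulated oocytes the values were 0.0603, 0.0149 and 0.130, so not every pair was over 0.1. WT and CKO libraries of different number correlated at -0.474 to 0.520 in GV and at -0.123 to 0.0569 in ovulated oocytes. With the replicate block the counts were 0, 8, 27, 19 and 5. RLE factors moved the median of all genes by 0.11 on the log2 scale in the CKO stage change. Searching the longest principal transcript, chosen after seeing the data, gave a CPE match in 6 members that rose and 3 that fell.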
